A study of Caenorhabditis elegans with 16 samples.

Results

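The hlh genes encode basic helix-loop-helix (bHLH) transcription factors. They were taken as every gene whose symbol begins with hlh- in the named gene table deposited for 20 °C, with hlh-1 left out, which gave 24 of the 25 hlh genes and 24 of the 19637 protein-coding genes of that table. The count tables held 21882 genes. Levels were read in Caenorhabditis elegans mixed-stage embryos of 2 strains, the wild type N2 and the mutant SX3678, whose genotype is fbxa-215(syb4404). Per the study's description this allele lacks the coding sequence of fbxa-215, an F-box gene of the A2 family. The mutants were thus a single allele in 1 strain. Parents of each strain were grown on plates at 20 °C and bleached for embryos 56 h after plating, or grown at 25 °C and bleached 47 h after plating. The 4 combinations of strain and temperature had 4 libraries each, 16 together, and the labels name no other treatment. Temperature, hours after plating and batch changed together and cannot be told apart. The study's methods speak of biological replicates, but neither they nor the labels say that the libraries of a group came from separate cultures, so p-values measure the spread between these libraries, which may be technical in part.

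A bHLH protein binds DNA as a dimer, with a basic region that contacts a short E box or a related site and a helix-loop-helix region that holds the partners together. In C. elegans HLH-2, the counterpart of the Daughterless and E proteins, is the partner of many tissue-specific bHLH factors, among them proneural factors of the Achaete-Scute kind, the Twist factor HLH-8 and the Ptf1a-type factor HLH-13. Other members act in other ways, such as HLH-30, the counterpart of the autophagy and lysosome regulator TFEB. The REF-1 family members hlh-25, hlh-26, hlh-27, hlh-28 and hlh-29 encode proteins with a pair of bHLH domains and are known as targets of Notch signalling in the early embryo.

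Totals ranged from 10001670 to 16777296 counts per library. The deleted gene fbxa-215 held 2263 to 3214 counts in the wild-type libraries of 20 °C and 2170 to 2753 in those of 25 °C, against at most 1 count in the mutant libraries of 20 °C and 0 in all 4 of 25 °C, as the labels of the strains have it. Transcripts of adults, a list of 10 genes that holds the vitellogenins, summed to 1.21 to 4.62 CPM (counts scaled by library size) over the 16 libraries. A stage score, the mean log2 CPM of 20 late differentiation genes minus that of 20 maternal genes, was -3.22 ± 0.0778 (SD, n = 4) in wild type and -3.47 ± 0.154 in mutants at 20 °C. At 25 °C it was -0.904 ± 0.0879 in wild type and -1.24 ± 0.116 in mutants. The strains differed by -0.25 at 20 °C (exact two-sided permutation p = 0.0571, overlapping groups) and by -0.34 at 25 °C (exact p = 0.0286, the smallest p that 4 against 4 libraries allow, groups apart). In RNA of whole embryos, fewer cells of a type and less RNA per cell cannot be told apart.

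Of the 24 members, 5 carried nearly all of the RNA. The summed level of the members was 664 ± 33.4 CPM (SD, n = 4) in wild type and 664 ± 26.3 in mutants at 20 °C, and 622 ± 56.2 in wild type and 650 ± 9.07 in mutants at 25 °C. hlh-2, hlh-3, hlh-14, hlh-16 and hlh-30 together held between 94.9% and 95.6% of that sum in each group. The other 19 members summed to 31.3 ± 2.84 CPM in wild type and 29.4 ± 2.41 in mutants at 20 °C, and to 31.8 ± 1.38 and 30.9 ± 1.05 at 25 °C. A mean of at least 1 CPM was reached by 13 members in wild type and 12 in mutants at 20 °C, and by 17 and 15 at 25 °C. The 2 members at the bottom were hlh-12, known for migration of the gonadal distal tip cells, with at most 1 count in any library, and the Olig-type gene hlh-31, with at most 2.

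**Figure D1:**
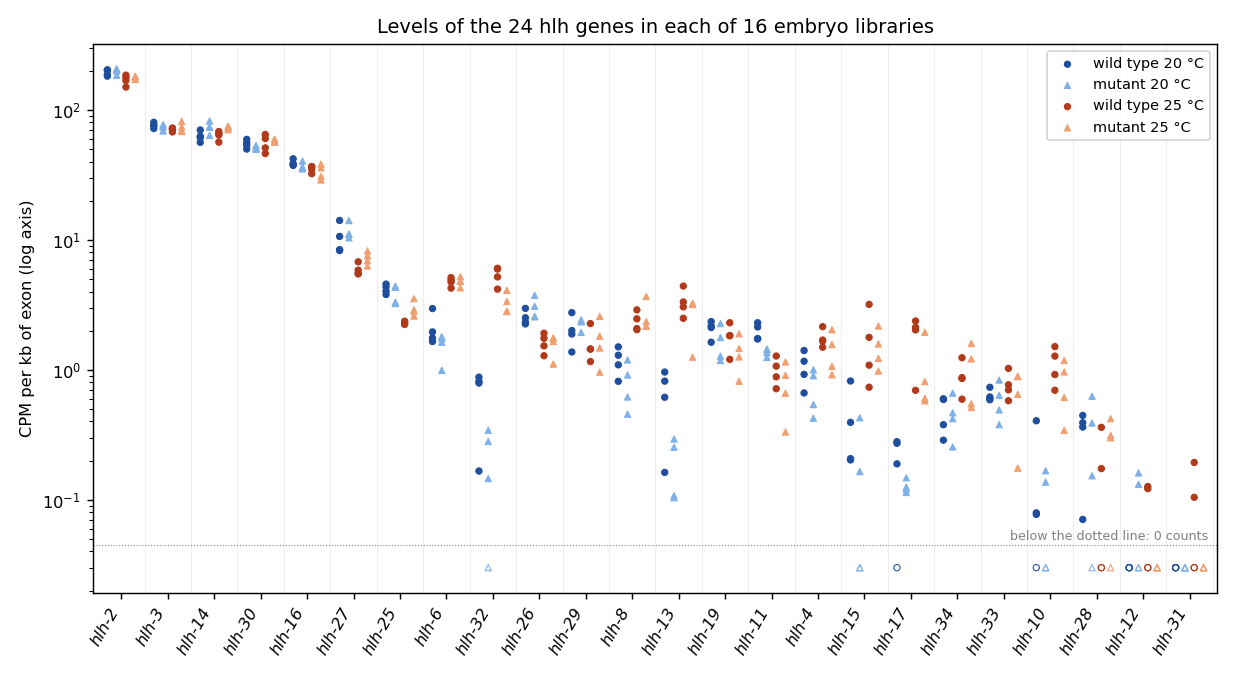
CPM per kb of exon on a log axis for each of the 24 hlh genes, with a point for every library, circles for wild type and triangles for mutants, blue for 20 °C and orange for 25 °C. Open symbols at the bottom stand for libraries with 0 counts. The 5 genes on the left sit above 20 CPM per kb in every library, and hlh-13, hlh-32, hlh-17 and hlh-10 sit higher at 25 °C than at 20 °C.

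Per kb of exon, the level in wild type at 20 °C was 193 CPM for hlh-2, 76.0 for hlh-3, 62.5 for hlh-14, 54.6 for hlh-30 and 38.9 for hlh-16, and then fell to 10.3 for hlh-27 and 4.18 for hlh-25. All of the others were below 3 CPM per kb in that group. The same 5 genes led in the other groups, with hlh-2 first in each. In mutants hlh-3 and hlh-14 were close to each other, at 73.6 and 73.2 CPM per kb at 20 °C and 73.2 and 73.1 at 25 °C.

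hlh-2 lies at chr I:7190788-7193920 on the minus strand (WBGene00001949, WBcel235). It stood at 335, 338, 303 and 312 CPM in the wild-type libraries of 20 °C and at 342, 344, 332 and 308 in the mutant libraries. At 25 °C it stood at 280, 295, 308 and 249 CPM in wild type and at 298, 285, 301 and 301 in mutants. The strains overlapped at both temperatures. The log2 fold change of mutant over wild type was 0.06 at 20 °C (95% interval -0.02 to 0.14, adjusted p = 0.377, edgeR quasi-likelihood test adjusted over all genes tested) and 0.06 at 25 °C (interval -0.05 to 0.18, adjusted p = 0.528).

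To ask which members differed between the strains, mutants were compared with wild type within each temperature, and a member was called at an adjusted p under 0.05. At 20 °C the Achaete-Scute gene hlh-14 was higher in mutants and the AP4-type gene hlh-11 was lower. These were 2 calls among the 14 members with enough counts to test, 14.3% of them, while 17.3% of all genes tested were called, 7.65% higher and 9.66% lower, so the share of members was near the background. The median log2 fold change was -0.07 over the 14 members and 0.00 over all 10471 genes tested, with 5 members higher and 9 lower. No member passed a fold of 2 as well, which 1.13% of all genes did. The members not tested at 20 °C were hlh-4, hlh-10, hlh-12, hlh-13, hlh-15, hlh-17, hlh-28, hlh-31, hlh-32 and hlh-34.

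hlh-14, which is needed for the divisions that form the PVQ, HSN and PHB neurons, lies at chr II:5737785-5738895 on the minus strand (WBGene00001958). It stood at 42.4, 48.5, 38.9 and 43.3 CPM in wild type at 20 °C and at 51.1, 50.8, 56.8 and 44.0 in mutants. The highest wild-type library lay above the lowest mutant library, and the other 3 mutant libraries lay above all of wild type. The log2 fold change was 0.25 ± 0.0714 (SE), a rise of 1.19-fold (edgeR quasi-likelihood test, adjusted p = 0.0193). At 25 °C the libraries stood at 45.7, 47.2, 44.3 and 39.1 CPM in wild type and at 48.7, 52.0, 51.4 and 50.2 in mutants, and the groups did not overlap. There the log2 fold change was 0.20 ± 0.0605 with an unadjusted p of 0.0054 and an adjusted p of 0.0827, which did not pass. The difference between the temperatures was -0.08 ± 0.102 on the log2 scale (adjusted p = 0.760 for the interaction).

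The call of hlh-14 at 20 °C was lost when wild-type replicate 1 (adjusted p = 0.0568), wild-type replicate 3 (0.0758) or mutant replicate 3 (0.095) was left out, and with the stage score as a covariate (0.103, with a log2 fold change of 0.31). Its fold change stayed between 0.19 and 0.31 on the log2 scale over all of the alternatives.

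hlh-11, known for control of fat metabolism in the intestine, lies at chr III:9619711-9626529 on the plus strand (WBGene00001955). It stood at 3.77, 4.66, 3.79 and 5.02 CPM in wild type at 20 °C and at 3.14, 2.96, 2.72 and 3.12 in mutants, with all 4 mutant libraries below all of wild type. It was the only tested member whose strains did not overlap at 20 °C, where 19% of all genes tested did not overlap. The log2 fold change was -0.50 ± 0.165 (SE), with a 95% interval from -0.82 to -0.18 (edgeR quasi-likelihood test, adjusted p = 0.0391). At 25 °C it stood at 2.79, 2.33, 1.93 and 1.56 CPM in wild type and at 1.44, 2.51, 1.98 and 0.724 in mutants, the groups overlapped, and the log2 fold change was -0.38 ± 0.302 (adjusted p = 0.485). Counts of hlh-11 ranged from 11 to 60 per library, so its values are less precise than those of hlh-14, which held 423 to 836.

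The call of hlh-11 ended in 6 of 8 fits that left out a library, namely wild-type replicates 2 (adjusted p = 0.0978) and 4 (0.107) and mutant replicates 1 (0.0546), 2 (0.0885), 3 (0.103) and 4 (0.0557). It also ended under DESeq2 (0.0808), with no count filter (0.0517), with all 16 libraries in 1 fit (0.152) and with the stage score as a covariate (0.459). The log2 fold change stayed between -0.57 and -0.37 in all of these fits.

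**Figure D2:**
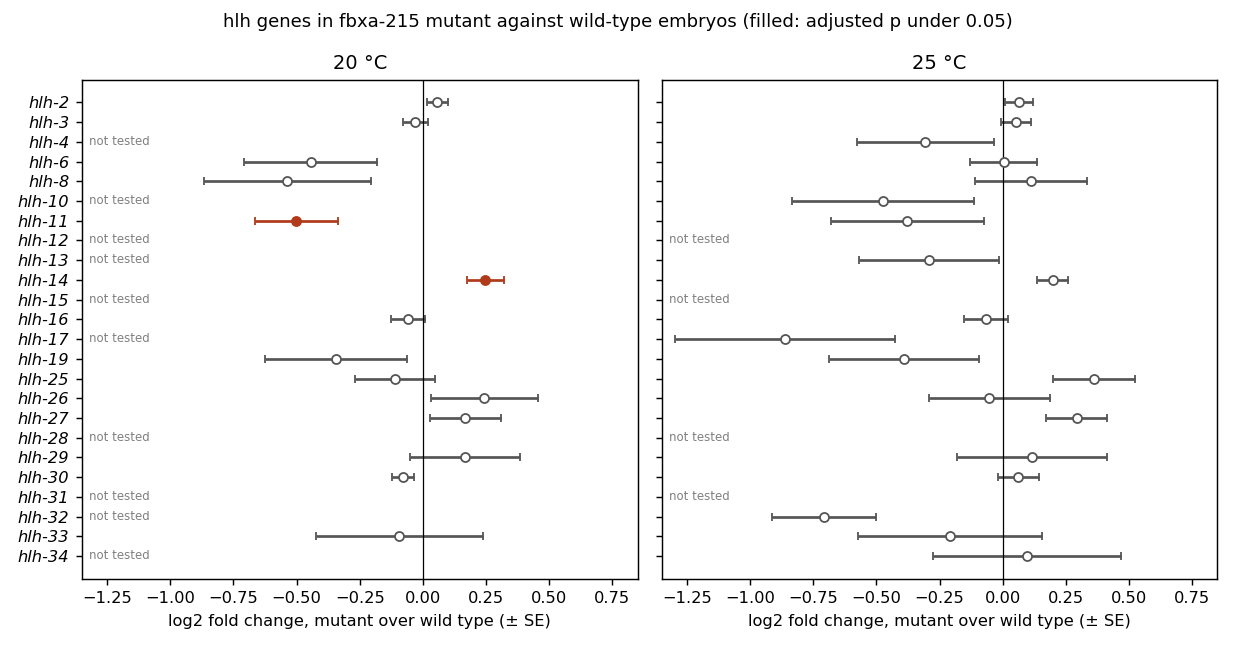
Log2 fold change of fbxa-215 mutants over wild type for each hlh gene, with its standard error, at 20 °C on the left and 25 °C on the right. Filled points passed an adjusted p of 0.05, which only hlh-11 and hlh-14 did at 20 °C, and no gene did at 25 °C. Genes without enough counts are marked as not tested.

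At 25 °C none of the 20 members tested was called by edgeR, DESeq2 or limma-voom, where edgeR called 4.14% of all 11945 genes. An unadjusted p under 0.05 was reached by 4 members, 2 of them REF-1 genes described below, the others being hlh-14 and hlh-32. That is beside 22.8% of all genes at the same unadjusted limit. The strains did not overlap for 3 members (hlh-14 and hlh-25 higher in mutants, hlh-32 lower), beside 13% of all genes. Of the 20 members, 10 were higher and 10 were lower, with a median log2 fold change of -0.02 over the members and 0.00 over all genes. Those not tested were hlh-12, hlh-15, hlh-28 and hlh-31.

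The Olig-type gene hlh-32 is given here by library although it was not called, a choice made after its values were seen. It lies at chr IV:16132464-16134290, with its relatives hlh-17, a gene of the cephalic sheath glia, and hlh-31 elsewhere on chr IV. At 25 °C it stood at 2.42, 1.95, 2.82 and 2.78 CPM in wild type and at 1.31, 1.57, 1.91 and 1.32 in mutants, with all mutant libraries below all of wild type. The log2 fold change was -0.71 ± 0.207 (edgeR, adjusted p = 0.0713), which did not pass. At 20 °C it held only 5, 1, 5 and 4 counts in wild type and 2, 0, 1 and 2 in mutants, too few to test. hlh-17 stood at a log2 fold change of -0.86 ± 0.436 at 25 °C (adjusted p = 0.254), and its strains overlapped.

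**Figure D3:**
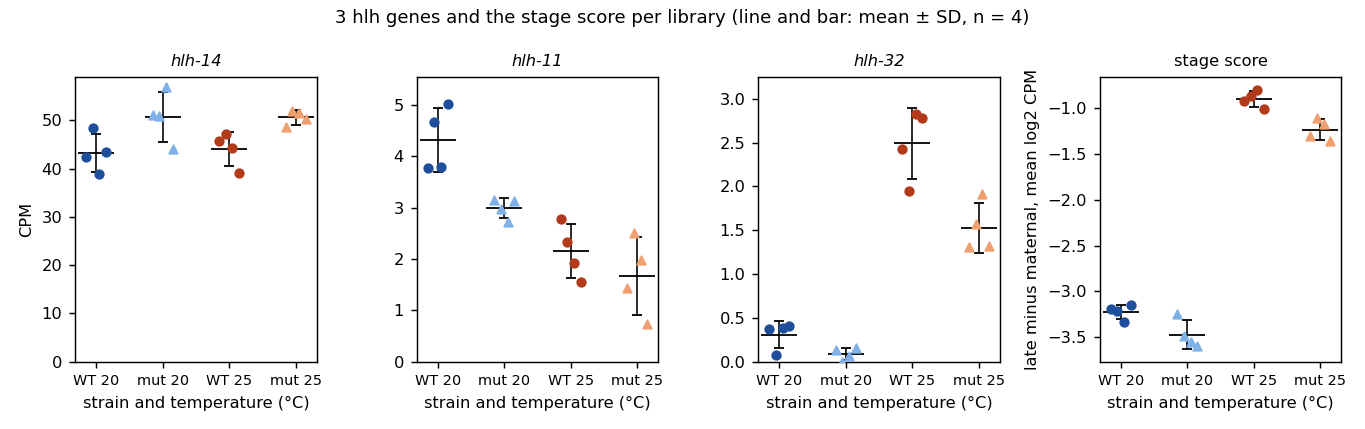
CPM of hlh-14, hlh-11 and hlh-32 and the stage score in each library by strain and temperature, with the mean and SD of each group of 4 as a line and bar. At 25 °C the mutant libraries of hlh-14 sit above those of wild type and the mutant libraries of hlh-32 below them, and the stage score of the mutants is below that of wild type.

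Of the members outside the REF-1 family, those not yet described overlapped between the strains wherever they were tested. At 20 °C the abundant genes hlh-3, hlh-16 and hlh-30 were at log2 fold changes of -0.03, -0.06 and -0.08, and at 25 °C at 0.05, -0.07 and 0.06, each with a 95% interval inside -0.24 to 0.22. hlh-19 was at 1.30 ± 0.193 CPM in wild type and 1.02 ± 0.316 in mutants at 20 °C, and at 1.13 ± 0.283 and 0.853 ± 0.281 at 25 °C (adjusted p = 0.440 and 0.459, edgeR). hlh-33 was at 0.799 ± 0.0835 and 0.735 ± 0.247 CPM at 20 °C, and at 0.965 ± 0.237 and 0.817 ± 0.423 at 25 °C. Of the members tested at 25 °C only, hlh-4, hlh-10 and hlh-13 were at log2 fold changes of -0.31, -0.47 and -0.29, and the bHLH-PAS gene hlh-34 was at 0.10, with adjusted p-values from 0.458 to 0.909. hlh-15, an NHLH-type gene that shares 3.73% of its exon length with trpp-12, held at most 3 counts in any library of 20 °C and at most 19 at 25 °C.

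The differences between the strains were compared between the temperatures by their interaction on all 16 libraries. Of 20 members tested, none was called and none reached an unadjusted p under 0.05 by edgeR, and DESeq2 and limma-voom called none either. Of all 12117 genes tested, 1.16% were called and 14.5% reached that unadjusted limit. The members nearest to it were hlh-25, at 0.44 on the log2 scale (unadjusted p = 0.0525, adjusted p = 0.350), and hlh-13, at 1.42 ± 0.702 (unadjusted p = 0.0553, adjusted p = 0.356). With no count filter edgeR gave hlh-13 an unadjusted p of 0.0337 (adjusted p = 0.3295) and hlh-12 one of 0.0478 (adjusted p = 0.3857), and no member was called.

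The REF-1 family was read gene by gene and as sums, because reads of some of its genes appeared to be divided between them. hlh-26, hlh-25 and hlh-27 lie together on chr II, at 5532839-5533742, 5535239-5536405 and 5539075-5540213. hlh-29 and hlh-28 lie together on chr X, at 17547492-17548639 and 17551055-17552202, with exons of the same length, 1047 bp. hlh-25 and hlh-27 had no whole count in any of the 16 libraries, while all 16 counts of hlh-26 were whole, and hlh-28 and hlh-29 were whole in 4 and 3 libraries. Added together, hlh-25 and hlh-27 were whole in 15 of 16 libraries, and so were hlh-28 and hlh-29 (tolerance 0.01 counts). The pairs were therefore also read as sums, a choice made after seeing the counts. hlh-27 shares 1.93% of its exon length with C17C3.11, and without strand reads from that stretch cannot be told apart.

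hlh-27 had the highest level of the 5 REF-1 genes named hlh. It stood at 8.57, 14.6, 11 and 8.71 CPM in wild type and at 11.5, 11.4, 10.7 and 14.6 in mutants at 20 °C. At 25 °C it stood at 6.05, 5.66, 7.02 and 5.70 CPM in wild type and at 7.79, 7.14, 8.51 and 6.52 in mutants. The strains overlapped at both temperatures, with log2 fold changes of 0.17 ± 0.140 at 20 °C (edgeR, adjusted p = 0.455) and 0.29 ± 0.121 at 25 °C (adjusted p = 0.174).

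hlh-25 stood at 4.28, 4.04, 4.86 and 4.61 CPM in wild type and at 4.58, 3.52, 4.69 and 3.44 in mutants at 20 °C. At 25 °C it stood at 2.48, 2.52, 2.41 and 2.37 CPM in wild type and at 3.08, 2.76, 3.01 and 3.75 in mutants. The strains overlapped at 20 °C, with a log2 fold change of -0.11 ± 0.157 (edgeR, adjusted p = 0.683). At 25 °C all mutant libraries lay above all of wild type, at 0.36 ± 0.162, with an adjusted p of 0.200.

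Added together, hlh-25 and hlh-27 stood at 12.8, 18.6, 15.9 and 13.3 CPM in wild type and at 16.04, 14.9, 15.4 and 18.01 in mutants at 20 °C. At 25 °C the sum stood at 8.54, 8.18, 9.43 and 8.07 CPM in wild type and at 10.9, 9.90, 11.5 and 10.3 in mutants. The strains overlapped at 20 °C and were apart at 25 °C. The log2 fold change of the sum was 0.09 ± 0.106 at 20 °C (edgeR, adjusted p = 0.602) and 0.31 ± 0.0966 at 25 °C (unadjusted p = 0.00568, adjusted p = 0.0851), and the interaction was 0.19 ± 0.154 (adjusted p = 0.609).

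hlh-26 stood at 1.99, 1.79, 2.35 and 1.84 CPM in wild type and at 2.03, 2.04, 2.44 and 2.96 in mutants at 20 °C. At 25 °C it stood at 1.21, 1.38, 1.51 and 1.02 CPM in wild type and at 1.31, 0.877, 1.39 and 1.38 in mutants. The strains overlapped at both temperatures, with log2 fold changes of 0.24 ± 0.212 (edgeR, adjusted p = 0.473) and -0.05 ± 0.240 (adjusted p = 0.923).

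hlh-29 stood at 2.88, 2.10, 1.97 and 1.44 CPM in wild type and at 2.03, 2.53, 2.44 and 2.48 in mutants at 20 °C, and hlh-28 held at most 10 counts in any library. At 25 °C hlh-29 stood at 1.21, 1.51, 1.51 and 2.37 CPM in wild type and at 1.90, 1.00, 1.54 and 2.70 in mutants. The strains overlapped, with log2 fold changes of hlh-29 of 0.17 ± 0.217 at 20 °C (edgeR, adjusted p = 0.650) and 0.12 ± 0.296 at 25 °C (adjusted p = 0.854). For hlh-28 and hlh-29 together the values were 0.14 ± 0.1903 (adjusted p = 0.672) and 0.20 ± 0.249 (adjusted p = 0.674).

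**Figure D4:**
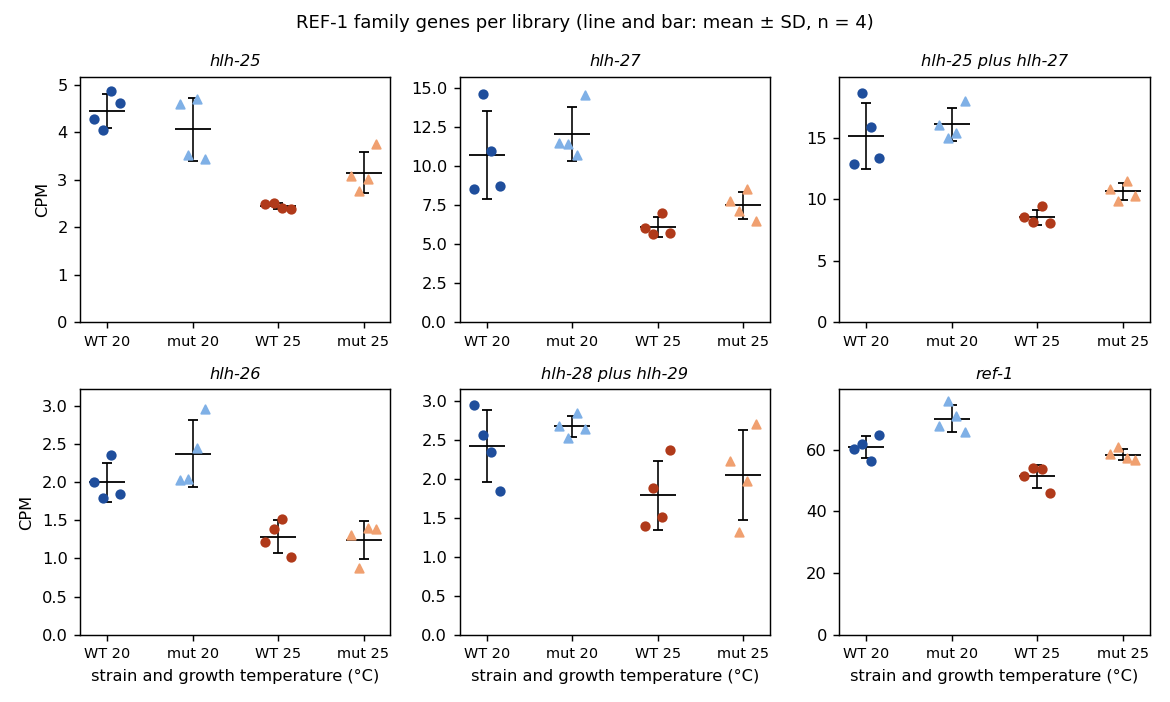
CPM of the REF-1 family genes in each library by strain and temperature, with the mean and SD of each group of 4 as a line and bar, for hlh-25, hlh-27, their sum, hlh-26, the sum of hlh-28 and hlh-29, and the related gene ref-1. The sum of hlh-25 and hlh-27 was lower at 25 °C than at 20 °C in both strains, and at 25 °C the mutant libraries of this sum sit above those of wild type.

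ref-1, the founding gene of the family, is not an hlh gene by name. It stood at 60.9 ± 3.51 CPM in wild type and 70.1 ± 4.50 in mutants at 20 °C (log2 fold change 0.23 ± 0.0539, edgeR, adjusted p = 0.00537). At 25 °C it stood at 51.4 ± 3.82 and 58.4 ± 1.81 CPM (0.18 ± 0.0570, adjusted p = 0.0869). It was thus called at 20 °C only, and the interaction was -0.07 ± 0.0816 (adjusted p = 0.724).

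The 12 Notch pathway genes listed beside the family were all tested. At 20 °C the ligand gene lag-2 was higher in mutants at a log2 fold change of 0.38 (adjusted p = 0.0031) and the protease gene sup-17 was lower at -0.12 (adjusted p = 0.0325). That was 1 of 12 higher and 1 of 12 lower, beside 7.65% and 9.66% of all genes, and the list's median was 0.02. At 25 °C the ligand gene apx-1 was higher at 0.22 (adjusted p = 0.0278), and so was the nuclear cofactor gene sel-8 at 0.24 (adjusted p = 0.0311). These 2 of 12 stood beside 4.14% of all genes called, and the list's median was 0.09. No gene of the list was called in the interaction by edgeR, where 4 of 12 reached an unadjusted p under 0.05, beside 14.5% of all genes.

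The 16 other bHLH genes, those not named hlh, were called between the strains at 20 °C in 5 of the 15 tested, beside 17.3% of all genes. hnd-1, a Hand-type mesoderm factor, was higher at a log2 fold change of 0.28 (adjusted p = 0.00019), mxl-1, a Max-type partner, at 0.30 (adjusted p = 0.00258), and ref-1 was the other gene that was higher. mxl-3, a Max-type gene that acts in fat metabolism, fell from 9.80 to 5.91 CPM, by 0.73 on the log2 scale (adjusted p = 0.00058), and the neurogenin ngn-1 fell by 0.21 (adjusted p = 0.0256). The median of the list was 0.04. At 25 °C none of the 16 tested was called by edgeR, beside 4.14% of all genes. An unadjusted p under 0.05 was reached by 3, beside 22.8% of all genes, and the median was 0.06.

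More hlh genes differed between the growth conditions than between the strains. The same held for all genes tested, and between the conditions the share of members called was below that of all genes. In wild type hlh-4, hlh-6, hlh-8, hlh-13 and hlh-32 were higher in the 25 °C libraries, and hlh-11, hlh-25, hlh-26 and hlh-27 were lower. These 9 calls were 52.9% of the 17 members tested, beside 66.1% of all genes tested (34.8% higher, 31.3% lower). A fold of 2 as well was passed by 4 members, beside 21.1% of all genes, and the temperatures did not overlap for 10 members, beside 62.9%. In mutants, which share no library with wild type, 10 of 17 members were called, or 58.8%, beside 69.3% of all genes (36.3% higher, 33% lower). There 5 passed a fold of 2, beside 19.9% of all genes, and the temperatures did not overlap for 9, beside 65.2%. Of the 17 members, hlh-4, hlh-13 and hlh-32 passed the count filter only through their 25 °C libraries, so the filter itself favoured a rise in them. Of the 14 members tested between the strains at 20 °C, 6 were called in wild type (2 higher, 4 lower). In mutants 7 of these were called (3 higher, 4 lower), and 2 in each strain passed a fold of 2. Libraries of either strain could carry a member into these 14. hlh-8, called higher with a fold above 2 in both, held 7 to 17 counts in wild type and 5 to 16 in mutants at 20 °C. Its pass of the filter may thus rest on its 25 °C libraries. The share of all genes held to that limit is not given here. The 8 members called in both strains were hlh-4, hlh-6, hlh-8, hlh-13 and hlh-32, all higher at 25 °C, and hlh-11, hlh-26 and hlh-27, all lower. The direction was the same in both strains for 16 of 17 members. With them moved the stage score. In each strain 19 of 20 late differentiation genes were called higher at 25 °C (median log2 fold change 2.00 in wild type and 2.24 in mutants). Of the 20 maternal genes, 16 were called lower in each strain (medians -0.47 and -0.27). The part of embryo stage in the changes of the hlh genes was not tested apart from temperature.

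**Figure D5:**
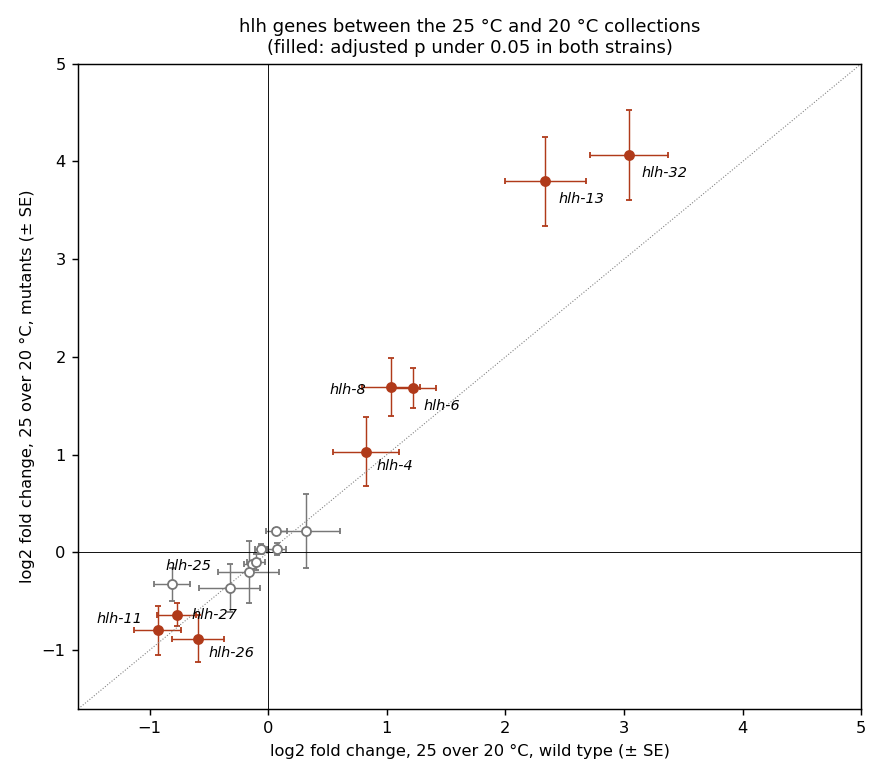
Log2 fold change of 25 °C over 20 °C for the 17 hlh genes tested in both strains, in wild type on the horizontal axis and in mutants on the vertical axis, with standard errors. Filled points passed an adjusted p of 0.05 in both strains. 5 of these sit at the upper right and 3 at the lower left, and the dotted line marks equal changes.

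Among the members tested, hlh-32 and hlh-13 had the largest fold changes between the conditions. In wild type hlh-32 was at 0.309 ± 0.155 CPM at 20 °C and 2.49 ± 0.404 at 25 °C, and in mutants at 0.0897 ± 0.0711 and 1.52 ± 0.281. hlh-13 held 7, 5, 8 and 1 counts in wild type and 1, 3, 1 and 2 in mutants at 20 °C, and 46, 25, 28 and 31 in wild type and 31, 32, 28 and 12 in mutants at 25 °C. The groups did not overlap for either gene in either strain. The fitted log2 fold changes were 3.04 ± 0.330 in wild type and 4.07 ± 0.462 in mutants for hlh-32, and 2.34 ± 0.342 and 3.80 ± 0.459 for hlh-13. With so few counts at 20 °C the fitted values depend on the prior count of the model.

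hlh-4, an Achaete-Scute gene of the ADL sensory neurons, was at 0.832 ± 0.256 CPM in wild type at 20 °C and 1.40 ± 0.224 at 25 °C, and at 0.573 ± 0.222 and 1.12 ± 0.407 in mutants. Its log2 fold changes were 0.82 ± 0.278 (edgeR, adjusted p = 0.0165) and 1.03 ± 0.351 (adjusted p = 0.0117), and its mutant libraries of the 2 temperatures overlapped. The call was lost in wild type without 20 °C replicate 3 (adjusted p = 0.0668) or 25 °C replicate 3 (0.0521), and in mutants without 20 °C replicates 2 (0.0512) or 3 (0.0525) or 25 °C replicate 2 (0.0791). By contrast hlh-3, an Achaete-Scute gene of the HSN motor neurons, and hlh-16, an Olig-type gene of the AIY interneurons, kept to -0.10 to 0.03 on the log2 scale in both strains and were not called. hlh-14 was at 0.08 ± 0.0760 and 0.04 ± 0.0575 (adjusted p = 0.396 and 0.598). hlh-10, hlh-15, hlh-17 and hlh-34 did not pass the count filter. With no filter 14 members were called in each strain, of 24 tested in wild type and 23 in mutants. The share of all genes called in those fits is not given here. hlh-10, hlh-15, hlh-17 and hlh-34 were among the 14, all higher at 25 °C, with at most 10 counts in any 20 °C library.

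hlh-6, which drives genes of the pharyngeal glands, rose from 1.82 ± 0.523 to 4.16 ± 0.326 CPM in wild type. In mutants it rose to the same level, 4.16 ± 0.332 CPM, with 1.35 ± 0.327 at 20 °C. The log2 fold changes were 1.22 ± 0.194 (edgeR, adjusted p = 4.47e-05) and 1.68 ± 0.204 (adjusted p = 8.84e-08), and the temperatures were apart in both strains. The Twist gene hlh-8, which acts in the M lineage and in enteric muscles, was at 1.03 ± 0.257 CPM at 20 °C and 2.08 ± 0.353 at 25 °C in wild type, and at 0.699 ± 0.286 and 2.28 ± 0.639 in mutants. Its log2 fold changes were 1.03 ± 0.245 (adjusted p = 0.00157) and 1.69 ± 0.294 (adjusted p = 1.7e-05). hlh-8 shares 4.32% of its exon length with C02B8.12, where reads of the 2 genes cannot be told apart without strand. At 20 °C hlh-6 and hlh-8 were at -0.44 ± 0.264 and -0.54 ± 0.331 in mutants over wild type, and neither was called (adjusted p = 0.267 and 0.287).

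hlh-11, hlh-26 and hlh-27 were called lower at 25 °C in both strains. hlh-11 was at -0.93 ± 0.197 in wild type (edgeR, adjusted p = 0.000635) and -0.80 ± 0.249 in mutants (adjusted p = 0.0066), with no overlap between the temperatures in either strain. hlh-27 was at -0.77 ± 0.163 and -0.64 ± 0.118, and the sum of hlh-25 and hlh-27 at -0.78 ± 0.124 (adjusted p = 4.35e-05) and -0.55 ± 0.0922 (adjusted p = 9.84e-06). hlh-26 was at -0.59 ± 0.219 (adjusted p = 0.0262) in wild type and -0.88 ± 0.238 (adjusted p = 0.00208) in mutants. In wild type its call was lost under DESeq2 (adjusted p = 0.0639) and without 20 °C replicate 3 (0.0712) or 25 °C replicates 1 (0.0578) or 4 (0.0802). hlh-29 was at -0.33 ± 0.258 and -0.37 ± 0.244 and was not called in either strain.

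hlh-25 was called in wild type only, at -0.81 ± 0.152 (edgeR, adjusted p = 0.000225), against -0.33 ± 0.171 in mutants (adjusted p = 0.0913). Because the interaction missed the threshold, this is not shown to be a difference between the strains. hlh-2 and hlh-30 were called in mutants only. hlh-2 was at -0.14 ± 0.0618 in wild type (adjusted p = 0.061) and -0.12 ± 0.0335 in mutants (adjusted p = 0.00241), with an interaction of -0.03 ± 0.0723 (adjusted p = 0.907). hlh-30 was at 0.07 ± 0.0846 in wild type (adjusted p = 0.478) and 0.22 ± 0.0322 in mutants (adjusted p = 1.73e-06), with an interaction of 0.11 ± 0.0973 (adjusted p = 0.648). Its wild-type libraries of 25 °C spread from 151 to 212 CPM, against 184 to 194 in mutants.

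Of the Notch pathway genes, 9 of 12 were called lower at 25 °C in wild type, beside 31.3% of all genes, and none was called higher, with a median of -0.19, among them both receptors, glp-1 at -0.58 and lin-12 at -0.26, and the DNA-binding factor lag-1 at -0.19. In mutants 5 of 12 were called lower, beside 33% of all genes, with a median of -0.08, and glp-1 was at -0.26. The maternal markers, of which 16 of 20 were called lower in each strain, moved the same way, and their part in these values was not tested. ref-1 was lower in both strains, at -0.19 (adjusted p = 0.015) and -0.23 (adjusted p = 0.000175).

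Targets reported for hlh factors, 15 genes in all, were read beside their regulators. At 20 °C 5 were tested and 1 was called between the strains, beside 17.3% of all genes. This was egl-15, an FGF receptor gene used by HLH-8, which fell from 4.01 to 2.06 CPM in mutants, by 0.95 on the log2 scale (edgeR, adjusted p = 0.00199). At 25 °C 10 were tested and 1 was called, beside 4.14% of all genes. This was phat-5, a pharyngeal gland gene of HLH-6, which fell from 3.13 to 1.57 CPM in mutants, by 1.00 on the log2 scale (adjusted p = 0.0146), while hlh-6 itself was at 4.16 CPM in both strains. The list's medians were -0.02 at 20 °C and -0.33 at 25 °C, beside 0.00 for all genes. Neither gene was called in the interaction (adjusted p = 0.211 for egl-15 and 0.298 for phat-5). Between the conditions 7 targets were called higher and 1, the autophagy gene lgg-1, lower at 25 °C in wild type, with a median of 2.06 over the 9 tested, beside 34.8% of all genes called higher. In mutants 6 were called higher, beside 36.3% of all genes, and 1 lower of the 8 tested, with a median of 1.71. Targets low at 20 °C could pass the count filter through their 25 °C libraries. Of the late differentiation genes, 7 of 16 tested were called lower in mutants at 20 °C (median -0.32), beside 9.66% of all genes. At 25 °C 2 of 20 were called lower (median -0.19), beside 244 of all 11945 genes. None was called higher at either temperature. The part of the late differentiation genes in the changes of the targets was not tested.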

How the data were processed

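Poly-A RNA was read as non-directional pairs. Per the study's methods, the authors trimmed reads with Trimmomatic (v0.39) and quantified them with salmon (v1.5.1) with sequence and GC bias corrections. The labels name the build WBcel235, and the transcriptome behind salmon is not given in the sources used here. They deposited estimated counts per gene in 1 table per temperature, of which 27.4% were not whole (tolerance 0.01), and these were rounded. The deposited log2 values per library served only to check the columns (16 of 16 correlated best with their own, lowest r = 0.988). The authors' fold changes and p-values were not used. Coordinates are from Ensembl release 115.

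Each comparison used the edgeR (v4.0.16, R v4.3.3) quasi-likelihood test after filterByExpr and TMM scaling, with Benjamini-Hochberg adjustment over all genes tested. The interaction was fitted on 16 libraries. CPM used TMM factors over all 16, and 95% intervals were taken from the SE with the multiplier of a normal distribution. The intervals are therefore somewhat narrower than the quasi-likelihood test implies. A count of 0 allows up to 3 counts, counting error only. As alternatives the fits were repeated with a replicate block, with the stage score as covariate, with all libraries in 1 fit, with each library left out, with 2 other count filters, with upper-quartile or RLE factors, with a fold above 2, and in limma-voom (limma v3.58.1) and DESeq2 (v1.42.0). Members, lists, tests and the naming rule were chosen with earlier results of these data known. The rule gave library values for members called between strains, hlh-2 and the REF-1 genes. Sequences were not used here.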

Additional observations from a re-analysis of the deposited data

Results flagged for a closer look

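In 68 combinations of a member and a group, 3 held a library far from the other 3 by Dixon's test, and chance gives about 1 in 20. All 3 were mutant libraries of 25 °C. hlh-8 was at 3.227 CPM in replicate 3, against 1.90 to 2.07 in the others. hlh-13 was at 0.7902 CPM in replicate 4, against 2.01 to 2.05. hlh-26 was at 0.8772 CPM in replicate 2, against 1.31 to 1.39.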

How the results depend on the processing

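Of 732 values for 42 fold changes of single members or summed pairs under the alternatives, 672 kept their direction and their side of the threshold, 36 no longer passed it, 9 newly passed it and 15 changed direction, 14 of these with the stage score as a covariate. No scaling moved the median of all genes by more than 0.0626 on the log2 scale.

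Of members called between the strains at 20 °C, 1 remained in number under DESeq2, with no count filter and with all 16 libraries in 1 fit, 0 with the stage score and 0 with a fold above 2, and 0 to 2 when a library was left out, 0 without mutant replicate 3. At 25 °C and for the interaction the number was 0 throughout. Between the conditions in wild type 14 members were called with no count filter, 5 with at least 10 counts in every library, 1 with the stage score, 4 with a fold above 2, and 9 to 13 when a library was left out. In mutants 14 were called with no filter, 6 with at least 10 counts in every library, 0 with the stage score, 5 with a fold above 2, and 9 to 13 when a library was left out. The strict filter tests fewer members, 12 and 11. Shares of all genes called under these alternatives are not given here. The stage score follows the temperature closely, so those fits leave little to tell them apart.

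With the stage score as a covariate, log2 fold changes between the strains at 20 °C were -0.11 for hlh-26, -0.0053 for hlh-27, -0.029 for hlh-29 and -0.0087 for the sum of hlh-25 and hlh-27, and 0.88 for hlh-11 at 25 °C. Between the conditions in wild type they were -4.79 for hlh-4, -0.35 for hlh-6, 0.013 for hlh-25 and -4.03 for hlh-30. In mutants they were -1.69 for hlh-4, -3.43 for hlh-8, -1.51 for hlh-13, 2.32 for hlh-26 and -0.37 for hlh-30. Because the stage score follows the temperature closely, these values between the conditions are poorly determined, and their errors are not given here. When a library was left out, hlh-30 ranged from -0.0042 (without wild-type replicate 3 of 25 °C) to 0.1457 in wild type between the conditions.

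With the replicate number as a block the members called were 2 and 0 between the strains at 20 °C and 25 °C, 9 and 10 between the conditions and 0 for the interaction. Deviations of libraries with the same number correlated between the strains at 0.129, 0.0314, 0.0850 and 0.0492 at 20 °C and at 0.000909 to 0.0727 at 25 °C. At 20 °C wild-type replicates 1, 3 and 4 correlated best with the mutant library of their own number, and at 25 °C only replicate 2 did. Whether libraries of the same number share an origin cannot be told from these values.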
